A study of Rattus norvegicus with 10 samples.

Results

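The 43 genes described here encode cytosolic ribosomal proteins and were measured in the hypothalamic paraventricular nucleus of rats dehydrated for 3 days and of control rats. They were taken by gene symbol from the array annotation: symbols that start with Rpl or Rps and a digit, plus Rplp0, Rplp1, Rplp2 and Rpsa, without the S6 kinase genes, the pseudogenes and the paralogs named as like genes. Only probe sets with a single annotated symbol were read, which gave 49 probe sets for the 43 genes, out of 14217 genes with such a probe set, and the probe set with the highest mean signal stood for each gene. The large subunit contributed 28 genes, the small subunit 14 and the stalk 1, Rplp0. Rplp1 and Rplp2 had no probe set with a single symbol and were not analysed here. The 43 genes lie on 15 chromosomes of the rat, with at most 9 on any of them.

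The dehydrated group held 5 RNA pools from male Sprague Dawley rats, 10 to 12 weeks old, after 3 days of dehydration. The control group held 5 RNA pools from control males of the same strain and age. Each pool combined the paraventricular nuclei of 5 animals and was read on its own Affymetrix Rat Genome 230 2.0 array, so 10 arrays stand for 50 animals. The design text names the supraoptic nucleus at 1 point, whereas the title and the sample labels name the paraventricular nucleus, and the labels were followed.

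Ribosomal proteins and ribosomal RNA form the large and the small subunit of the ribosome, which translates messenger RNA into protein. The messenger RNAs of vertebrate ribosomal proteins typically begin with a cytosine followed by a run of pyrimidines, the 5′ terminal oligopyrimidine tract, through which the kinase complex mTORC1 controls their translation together, largely without changing their abundance. In the paraventricular nucleus, magnocellular neurons make the peptide hormones vasopressin and oxytocin, and water deprivation stimulates vasopressin synthesis. The arrays measured messenger RNA abundance in the nucleus as a whole, so neither translation nor the amount of ribosomes was read.

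The start of the gene is shown for 8 members because it carries the feature the family is known for. Each line gives 30 bases of the RefSeq sequence on build GRCr8, 15 before the annotated transcription start and 15 from the start base on, 5′ to 3′ on the gene's own strand. Capitals mark the longest run of C and T that has 6 or more bases, counted from a C within 10 bases of the annotated start. Bases of a run that lie further upstream are not counted. A shorter run of that kind in the same line is left in lower case, and a run may go on past the end of the line. The windows are Rps28 (chr7:15311319-15311348, minus strand), Rps23 (chr2:23814502-23814531, plus strand), Rps3a (chr2:173827028-173827057, minus strand), Rpl23 (chr10:83272170-83272199, minus strand), Rpl37a (chr9:81748076-81748105, plus strand), Rplp0 (chr12:46718376-46718405, minus strand), Rpl7a (chr3:30637121-30637150, plus strand) and Rpl24 (chr11:58128391-58128420, minus strand). Rps28, Rps23, Rps3a, Rpl23 and Rpl7a are among the members with the most positive differences below, Rpl24 is among those with the most negative, Rplp0 is the stalk protein and Rpl37a is a member whose run begins at the start base.
Rps28: gcatcccctgctcacgtgaCTCCTCTCCgc
Rps23: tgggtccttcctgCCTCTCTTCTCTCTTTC
Rps3a: gagttgtacttccgCCCTTTTggctctcag
Rpl23: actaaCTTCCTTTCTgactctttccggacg
Rpl37a: gcatgcccgttgcgtCTCTTCCTCTTCggg
Rplp0: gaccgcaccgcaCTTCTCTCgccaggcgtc
Rpl7a: ctctcctccagccgagcaagatggtgagtg
Rpl24: gaatttagggaggagattctctaccctata
Rpl7a and Rpl24 hold no such run in this window. The line of Rpl7a opens with a longer run of C and T that begins further upstream, of which only the last 4 bases were counted. The line of Rpl24 holds ttctct just after the start base, of which only the 4 bases from its first C on were counted.

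A promoter sequence was matched by symbol for 38 of the 43 members. A pyrimidine run of 6 or more bases, counted as above, was found at the start of 24 of the 38 (63.2%). Such a run was found in 17.5% of the 21842 protein-coding promoters of the table. A run of 10 or more bases was found in 14 members (36.8%), against 3.24% of all promoters. Over the whole window, from 250 bases before to 50 bases after the start, CGGAAG on either strand was found in 18 members (47.4%) and in 19.8% of all promoters. TATAAA on either strand was found in 5 members (13.2%) and in 13.0% of all promoters. These are matches of letters only.

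The values are linear probe set signals in array units, which the authors had brought to the same trimmed mean on every array. The first principal component set control replicate 5 (37.2) apart from the remaining arrays (-14.4 to 3.69), and dehydrated replicate 2 lay on the side of the controls on the second component. Results are therefore also given without these arrays where they matter. The log2 ratio of 3′ to 5′ Gapdh control probe sets was 1.58 ± 0.22 on dehydrated arrays and 1.41 ± 0.21 on control arrays (SD, n = 5 each, exact permutation p = 0.254, smallest possible p 0.0079). The numbers in the sample titles were consecutive within each group, with control replicate 5 as the exception. What these numbers count is not given, no label names an array batch, and a batch effect was not tested.

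The messenger RNAs of the ribosomal proteins differed little between dehydrated and control rats. None of the 39 genes tested passed the threshold of an adjusted p of 0.05 (limma with Benjamini-Hochberg adjustment over 18629 probe sets), where 108 probe sets or 0.58% passed. That count of 108 was 46 without dehydrated replicate 3 and between 50 and 71 without dehydrated replicate 1 or 4 or without control replicate 1, 2, 3 or 4, while the count of members stayed 0 in each of these. The lowest adjusted p was 0.137, for Rps28, and the next was 0.286, for Rps29. An unadjusted p under 0.05 was reached by 5 of the 39 members (12.8%), against 12.7% of all probe sets tested and 19.4% of the 664 other probe sets with a mean signal of 900 or more. After quantile normalization it was reached by 2 of the 39, against 12.6% of all probe sets tested. The other 4 members had a mean signal below the filter of 24.1 and were not tested.

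The log2 differences, dehydrated minus control, ran from -0.14 for Rpl39 to 0.23 for Rps28, with a median of 0.042 against -0.0048 over all probe sets tested. Of the 39, 28 were positive and 11 negative, where 48.8% of all probe sets tested were positive. All 39 differences were within 0.3 on the log2 scale, which is a 1.23-fold change, and 38 were within 0.2. The 95% confidence interval of the difference lay inside 0.3 in either direction for 37 members and inside 0.5, a 1.41-fold change, for all 39. The highest upper bound was 0.36, for Rps28, and the lowest lower bound was -0.49, for the dim Rpl39, or -0.24, for Rpl24, among the other 38. These bounds rest on a median standard error of 0.061 for the members, against 0.12 for all probe sets tested.

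Quantile normalization, which gives all arrays the same distribution of signals, moved the balance of signs. It left 18 members positive and 21 negative, with a median of -0.0058, where 48.8% of all probe sets tested were positive. The difference was lower after it than as deposited in 38 of the 39 members, and 10 changed from positive to negative. None passed the threshold on that scale either, where 0.564% of all probe sets did. Median centring, which gives the tested probe sets the same median on every array, left 29 of the 39 positive, with a median of 0.057. The balance of signs moved with quantile normalization and not with median centring.

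**Figure D1:**
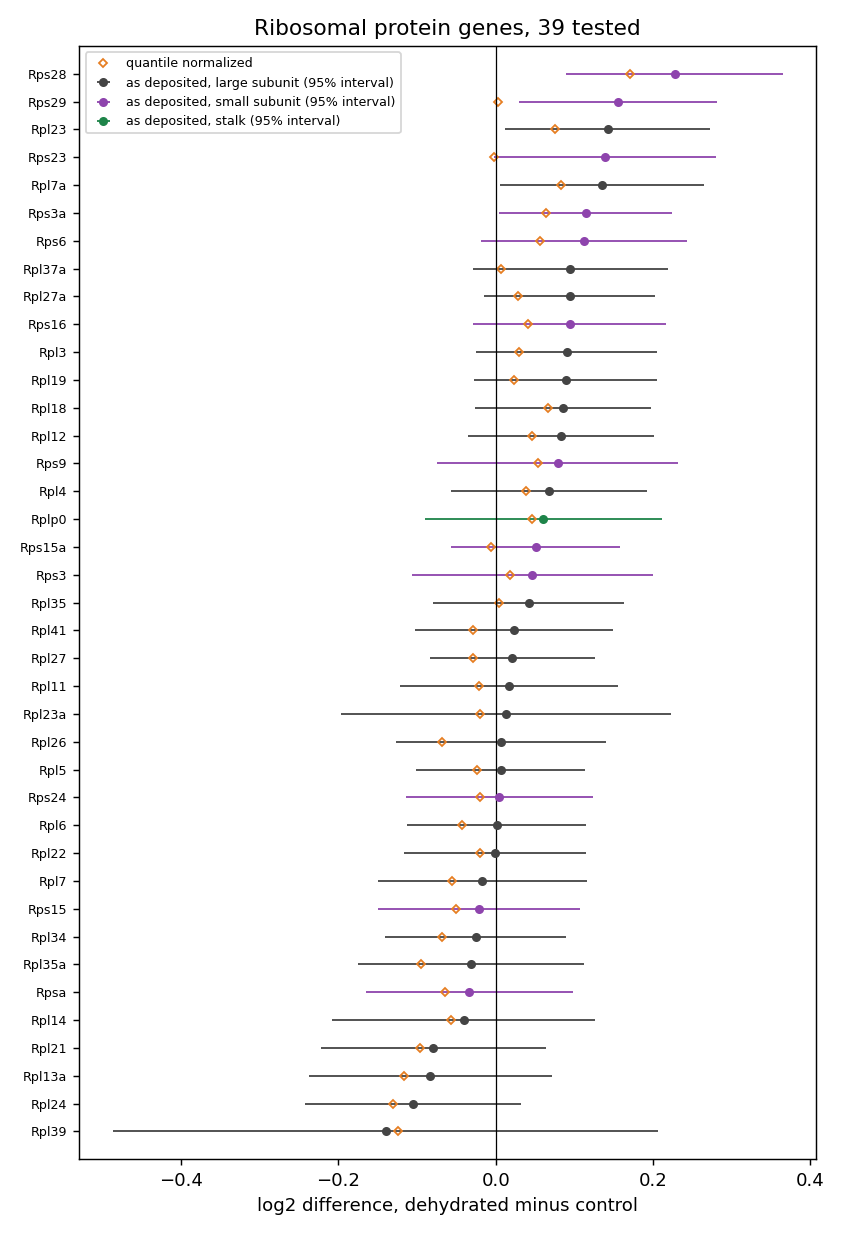
Log2 difference, dehydrated minus control, of the 39 ribosomal protein genes tested, 1 row per gene. Filled points with bars give the difference of the deposited signals with its 95% interval, coloured by subunit, and open diamonds give the difference after quantile normalization. The filled points lean to the right of 0 (28 of 39), whereas the diamonds do not (18 of 39).

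Among the small subunit genes, 12 were tested. Rps28, a protein of the small subunit near the exit of the messenger RNA channel, had signals of 2528.5, 1987.1, 2007.8, 2145.5 and 2420.6 in the dehydrated pools, against 1845.4, 1861.6, 1875.9, 1927.3 and 1915.6 in the control pools. All 5 dehydrated values lay above the highest control value, although dehydrated replicates 2 and 3 did so narrowly and the dehydrated pools spread far more than the controls. It differed by 0.23 ± 0.065 (SE) on the log2 scale, with an adjusted p of 0.137 in limma. Rps28 was the only member whose groups did not overlap, 1 of 39, where 3.36% of all probe sets tested showed no overlap and 1.94% showed none with the dehydrated values above. After quantile normalization its groups overlapped, no member was free of overlap (background 3.44%), and the log2 difference was 0.17. Without dehydrated replicate 1 the groups of Rpl7a, a large subunit protein, did not overlap either, and without control replicate 4 those of Rpl27a, also of the large subunit.

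Rps29, a small zinc-binding protein of the small subunit head, had signals of 4107.7, 4108.3, 4619.3, 4825.4 and 5131.2 in the dehydrated pools, against 3975.2, 4080.3, 4028, 4126 and 4176.5 in the control pools. Dehydrated replicates 3, 4 and 5 were above all controls, while replicates 1 and 2 lay among them. The log2 difference of 0.16 ± 0.06 (SE) had an adjusted p of 0.286 in limma, and it was 0.0029 after quantile normalization. Rps23, which sits at the decoding centre, had signals of 4560.8, 4307.6, 4308, 5550.1 and 5049.5 in the dehydrated pools, against 4201.6, 4364.1, 4017.9, 4611.3 and 4310.6 in the control pools. Only dehydrated replicates 4 and 5 exceeded the highest control. Its log2 difference was 0.14 ± 0.067 (SE) as deposited (adjusted p 0.399, limma) and -0.0021 after quantile normalization, so for Rps23 the sign turned with that scaling. It was 0.15 with median centring, and as deposited it was 0.082 without dehydrated replicate 4.

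Rps6, the ribosomal substrate of the S6 kinases downstream of mTORC1, had signals of 2842.4, 2808.3, 3335.1, 3418.4 and 2976.5 in the dehydrated pools, against 2695.5, 2890.7, 2688.2, 3032.9 and 2892.9 in the control pools. Dehydrated replicates 3 and 4 stood above all controls and the others lay within the control range. The log2 difference was 0.11 ± 0.062 (SE) (adjusted p 0.465, limma), against 0.056 after quantile normalization and 0.073 without dehydrated replicate 4. The array reads the transcript of Rps6 and not its phosphorylation.

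Rps3a, a protein of the small subunit platform, had signals of 2717.2, 2400.5, 2372.6, 2539.1 and 2586.5 in the dehydrated pools, against 2203.2, 2437.1, 2255.3, 2318.4 and 2432.9 in the control pools. The groups overlapped, with dehydrated replicates 2 and 3 inside the control range. On the log2 scale it differed by 0.11 ± 0.052 (SE) (adjusted p 0.377, limma), and by 0.064 after quantile normalization.

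Rpsa, a small subunit protein also known as the laminin receptor precursor, had signals of 1275.3, 1472.9, 1519.5, 1562.2 and 1426.6 in the dehydrated pools, against 1622.1, 1476, 1374.9, 1459.1 and 1486.4 in the control pools. The lowest value was a dehydrated pool and the highest a control pool, and the rest were mixed. Its log2 difference was -0.033 ± 0.062 (SE) (adjusted p 0.861, limma), and it was 0.012 without dehydrated replicate 1. The remaining 6 small subunit genes tested, Rps3, Rps9, Rps15, Rps15a, Rps16 and Rps24, had differences from -0.022 (Rps15) to 0.094 (Rps16), none with a lower adjusted p than 0.519. Over the 12 small subunit genes, 10 differences were positive and the median was 0.086 as deposited, against 7 positive and a median of 0.010 after quantile normalization.

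Among the large subunit genes, 26 were tested. Rpl23, a protein of the subunit interface that can also bind the p53 regulator Mdm2, had signals of 2274.9, 2189, 2620.7, 2684.7 and 2527 in the dehydrated pools, against 2327.9, 2117.4, 2248.3, 2322.9 and 2098.3 in the control pools. Dehydrated replicates 3, 4 and 5 were above the controls, and replicates 1 and 2 were not. The log2 difference was 0.14 ± 0.062 (SE) (adjusted p 0.354, limma) and 0.075 after quantile normalization. Mdm2 itself, on another probe set, had a log2 difference of 0.093 ± 0.062 (SE) (adjusted p 0.557, limma).

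Rpl7a, a large subunit protein, had signals of 2220.1, 2329.3, 2762.6, 2628.3 and 2456.3 in the dehydrated pools, against 2304.1, 2284.5, 2057.9, 2305.3 and 2312.1 in the control pools. Dehydrated replicate 1 was within the control range and the other dehydrated values were above it, while control replicate 3 was the lowest of all. It differed by 0.13 ± 0.061 (SE) on the log2 scale (adjusted p 0.377, limma), and by 0.082 after quantile normalization. Rpl19, which forms a bridge between the subunits, had signals of 2984.4, 3015, 3536.7, 3438.4 and 3171.4 in the dehydrated pools, against 3098.6, 2971.6, 2880.6, 3065.2 and 3132.5 in the control pools. The groups overlapped, and the log2 difference was 0.089 ± 0.055 (SE) (adjusted p 0.518, limma). It was 0.024 after quantile normalization and 0.056 without dehydrated replicate 3.

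Rpl37a, a zinc-binding large subunit protein, had signals of 3151.5, 2976.2, 3317, 3587.6 and 3355.5 in the dehydrated pools, against 2919.6, 3065.7, 2860.5, 3109.2 and 3382.7 in the control pools. Its highest control value exceeded 4 of the 5 dehydrated values. The log2 difference was 0.095 ± 0.059 (SE) (adjusted p 0.519, limma), against 0.0074 after quantile normalization and 0.062 without dehydrated replicate 4. Rpl26, a protein beside the exit of the peptide tunnel, had signals of 2822.4, 3188.4, 3582.9, 3574.6 and 3143.8 in the dehydrated pools, against 3334.5, 3101.5, 3121.3, 3427.1 and 3194.1 in the control pools. Dehydrated replicates 3 and 4 were the highest and dehydrated replicate 1 the lowest of all 10. Its log2 difference was 0.0072 ± 0.063 (SE) (adjusted p 0.973, limma), and it was negative after quantile normalization, at -0.068, and without dehydrated replicate 3 or 4 or control replicate 2 or 3 (-0.028 to -0.0055).

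The members with the most negative differences belonged mainly to the large subunit, as did 26 of the 39 members tested. Rpl24, which reaches from the large to the small subunit as a bridge, had signals of 1259.1, 1311.3, 1432.5, 1431.8 and 1146.6 in the dehydrated pools, against 1437.5, 1312.3, 1373, 1497.7 and 1441.7 in the control pools. Dehydrated replicates 1, 2 and 5 were below all controls, and replicates 3 and 4 lay among them. On the log2 scale it differed by -0.10 ± 0.065 (SE) (adjusted p 0.519, limma) as deposited. After quantile normalization it was -0.13 (adjusted p 0.39, limma), and without dehydrated replicate 5 it was -0.057.

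Rpl13a, which human myeloid cells release from the ribosome after interferon gamma to repress certain messenger RNAs, had signals of 2457.6, 2627.8, 2260.3, 2175.9 and 2026 in the dehydrated pools, against 2405.4, 2468.2, 2350.6, 2201.7 and 2793.2 in the control pools. The groups overlapped over most of their range, with a log2 difference of -0.083 ± 0.073 (SE) (adjusted p 0.67, limma). It was -0.13 without dehydrated replicate 2, -0.037 without dehydrated replicate 5 and -0.034 without control replicate 5. Rpl21, a large subunit protein, had signals of 1102.9, 1401, 1335.3, 1258.3 and 1136.8 in the dehydrated pools, against 1343, 1344.8, 1198.6, 1323.9 and 1355.2 in the control pools. Dehydrated replicates 1 and 5 were the lowest and dehydrated replicate 2 the highest, and the log2 difference was -0.079 ± 0.068 (SE) (adjusted p 0.661, limma). Without dehydrated replicate 1, 2 or 5 it was -0.036, -0.12 or -0.047 in that order.

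Rpl39, a very small protein that lines the peptide exit tunnel, was read by the only dim probe set among the members tested, with a mean signal of 104 against 926 to 4528 for the other 38. Its signals were 107.3, 105.2, 111.3, 57.6 and 120.2 in the dehydrated pools, against 104.5, 127.3, 108.6, 84.3 and 118.7 in the control pools. Dehydrated replicate 4 was far below the rest and the other dehydrated values lay within the control range. The log2 difference of -0.14 ± 0.16 (SE) (adjusted p 0.766, limma) turned to 0.041 without dehydrated replicate 4. Signals of different probe sets depend on their probes and are not compared here as amounts of transcript.

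The differences of Rpl14, Rpl34 and Rpl35a were smaller still. Rpl35a, which is mutated in some patients with Diamond-Blackfan anaemia, had signals of 2091.8, 2625.7, 2640, 2697.7 and 2568.7 in the dehydrated pools, against 2684.5, 2647.1, 2511.3, 2695.8 and 2327.4 in the control pools. Dehydrated replicate 1 was the lowest, control replicate 5 came next, and the other 8 pools were close together. Its log2 difference was -0.031 ± 0.068 (SE) (adjusted p 0.883, limma) and turned to 0.035 without dehydrated replicate 1. The log2 difference of Rpl34 was -0.025 ± 0.054 (SE) (adjusted p 0.879, limma). That of Rpl14 was -0.041 ± 0.079 (SE) (adjusted p 0.869, limma), or -0.54 (adjusted p 0.303) as the mean over its 2 probe sets, of which the further one was too dim to be tested alone. Both are large subunit proteins. The sign turned for Rpl34 without control replicate 5 (0.015) and for Rpl14 without dehydrated replicate 1 (0.0052) or dehydrated replicate 5 (0.013).

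The remaining 14 large subunit genes tested had differences from -0.017 (Rpl7) to 0.094 (Rpl27a), none with a lower adjusted p than 0.459. Over the 26 large subunit genes, 17 differences were positive and the median was 0.015 as deposited, against 10 positive and a median of -0.022 after quantile normalization. The difference between the subunits was not tested, since the members of a subunit are not replicates.

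Rplp0, the base of the stalk that recruits translation factors, had signals of 1555.6, 1341, 1288.5, 1392.6 and 1210.7 in the dehydrated pools, against 1212.7, 1331.1, 1254.4, 1225 and 1479.8 in the control pools. A dehydrated pool and a control pool were the 2 highest, and the lowest 4 held both kinds. The log2 difference was 0.061 ± 0.071 (SE) (adjusted p 0.766, limma), and 0.046 after quantile normalization. Single arrays moved it: it was 0.010 without dehydrated replicate 1, 0.10 without dehydrated replicate 5, 0.036 without control replicate 1, 0.040 without control replicate 4 and 0.11 without control replicate 5.

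**Figure D2:**
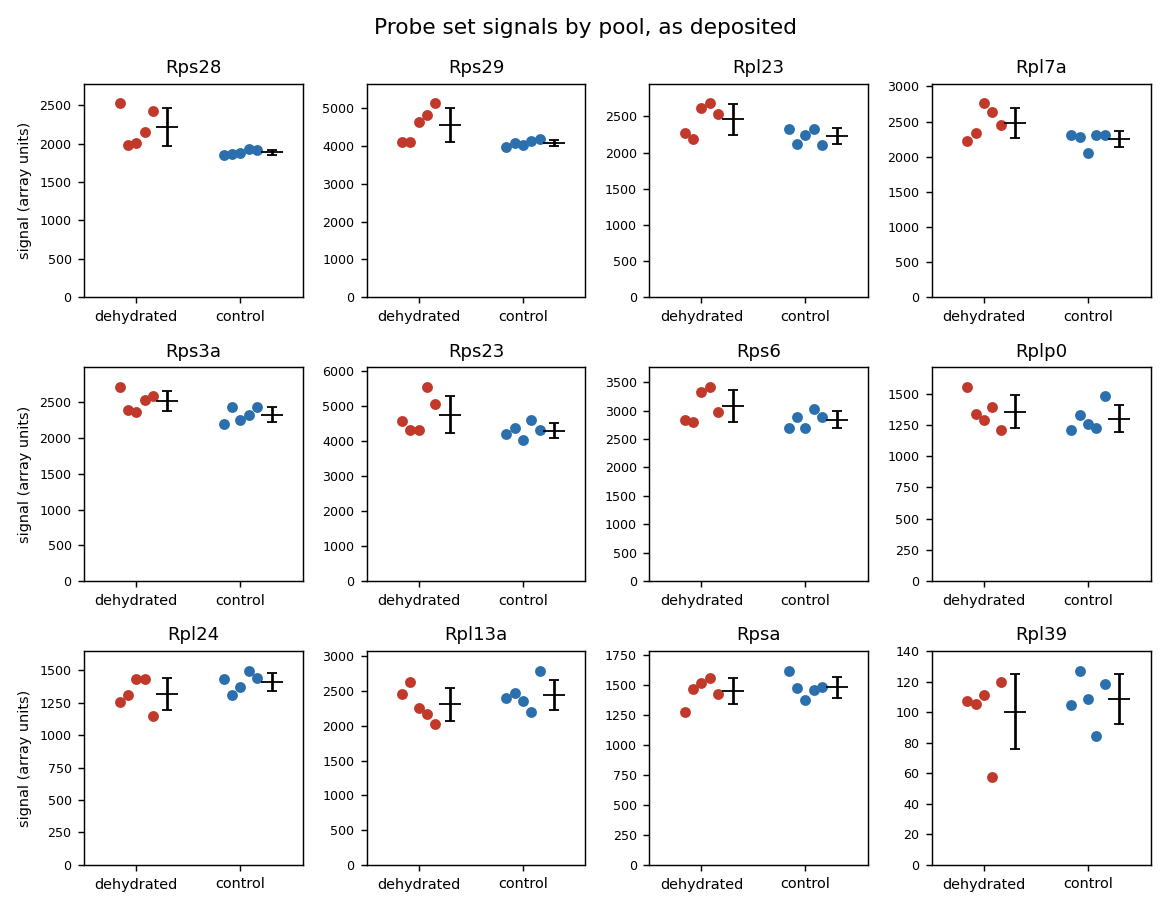
Deposited probe set signals of 12 ribosomal protein genes in array units, 1 panel per gene, with the 5 dehydrated pools to the left and the 5 control pools to the right. Points are pools, and the bar beside them is the mean with its SD. Only for Rps28 do the groups not overlap, and in Rpl39 dehydrated replicate 4 lies at 57.6, below all others.

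The 4 members not tested were read by dim probe sets. Rps4y2, a copy of the small subunit gene Rps4, had signals of 26.5, 25.9, 30.3, 21.1 and 20 in the dehydrated pools, against 23.6, 24.8, 21.1, 19.4 and 26.1 in the control pools, with a mean just under the filter. Rps13, of the small subunit, had 18.9, 24.9, 25.7, 17.3 and 12.5 in the dehydrated pools, against 15.8, 16.6, 14.6, 13.6 and 24.7 in the control pools. The dehydrated and control values overlapped in both genes. Rpl28 and Rpl30, of the large subunit, had mean signals of 14.9 and 8.24 over the 10 arrays, which is near the bottom of the range. These low values of genes that cells use widely say how these probe sets read on the arrays and give no level of the transcripts.

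For 5 members a further probe set with a single symbol was present, 6 probe sets in all. Of the 2 further probe sets of Rpsa, one had a log2 difference of 0.034 and the other of -0.10. A dim further probe set of Rpl7 differed by 0.10 and one of Rps24 by -0.13. A further probe set of Rpl3, whose name bears the mark for probes shared with other sequences, had signals of 209.0, 220.1, 256.6, 227.5 and 244.5 in the dehydrated pools, against 127.1, 162.4, 229.8, 214.6 and 173.4 in the control pools. The groups overlapped, and its log2 difference of 0.37 ± 0.13 (SE) had an adjusted p of 0.23 in limma, whereas the brighter probe set that stood for Rpl3 differed by 0.09. The further probe set of Rpl14 was too dim to be tested. A separate group of 27 tested probe sets listed only ribosomal protein symbols but more than 1 of them; none passed the threshold, 21 differences were positive, and the median was 0.033 as deposited and 0.00015 after quantile normalization.

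Paralogs and pseudogenes of the family were left out of the 43 and are given beside them. Rpl7l1, a paralog of Rpl7 that is named as a like gene, had signals of 128.3, 154.9, 116.8, 137.9 and 123.7 on its brighter probe set in the dehydrated pools, against 179.4, 157.1, 177.2, 173 and 168.1 in the control pools. All dehydrated values were below the lowest control value, narrowly so for dehydrated replicate 2. Of all probe sets tested, 3.36% showed no overlap in either direction. The log2 difference was -0.37 ± 0.086 (SE), with an adjusted p of 0.0677 in limma, which missed the threshold. Rpl7l1 passed it with array weights (adjusted p 0.0394) and without dehydrated replicate 2 (adjusted p 0.0298). With other single arrays left out its limma adjusted p reached 0.177, and in other settings 0.126. Array weights raised the count of all probe sets past the threshold from 108 to 201. A second probe set of Rpl7l1 differed by -0.14 ± 0.090 (adjusted p 0.555, limma), with overlapping groups. Rpl7 differed by -0.017. Rpl26l1 differed by 0.33 ± 0.15 (adjusted p 0.355, limma) and Rps27l by -0.11 ± 0.18 (adjusted p 0.844, limma), both on dim probe sets with overlapping groups. Rpl37-ps2, a pseudogene symbol, differed by -0.48 ± 0.19 (adjusted p 0.31, limma). Rpl3l, Rpl39l1 and Rps4x-ps1 were too dim to be tested.

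The level of the whole family varied between arrays of the same group by about as much as between the groups, with a pooled SD of 0.057 between arrays and a difference of 0.048 between the group means of the values that follow. As deposited, the median over the 39 members of the log2 deviation from each gene's 10-array mean was -0.066, -0.011, 0.084, 0.092 and 0.0084 in the dehydrated pools, against -0.037, -0.046, -0.087, 0.015 and 0.021 in the control pools. Dehydrated replicates 3 and 4 were the highest, control replicate 3 and dehydrated replicate 1 the lowest, and the groups overlapped. Of the 39 members, 9, 16, 32, 35 and 21 were above their own 10-array mean in the dehydrated pools, against 13, 14, 6, 25 and 22 in the control pools. Among the dehydrated pools the positive values lay mainly in replicates 3 and 4, while control replicates 1, 2 and 3 were negative. The members' median difference of 0.042 was 0.026 without dehydrated replicate 3 and 0.032 without dehydrated replicate 4. It was 0.026 without control replicate 2 and 0.030 without control replicate 3. Without dehydrated replicate 3 the count of positive members was 22, and without dehydrated replicate 1 it was 33. The members' share of the summed signal of an array was 2.05 ± 0.085% in the dehydrated pools and 1.98 ± 0.047% in the control pools (SD, n = 5 each).

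After quantile normalization the same medians were -0.049, 0.0071, 0.053, 0.006 and -0.044 in the dehydrated pools, against 0.0075, -0.013, -0.0075, -0.0029 and 0.033 in the control pools. Dehydrated replicates 1 and 5 were then the lowest, dehydrated replicate 3 the highest, and the dehydrated pools enclosed the control range on both sides. With control replicate 5 and dehydrated replicate 2 both left out, the members' median difference as deposited was 0.060, with 27 of 39 positive.

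**Figure D3:**
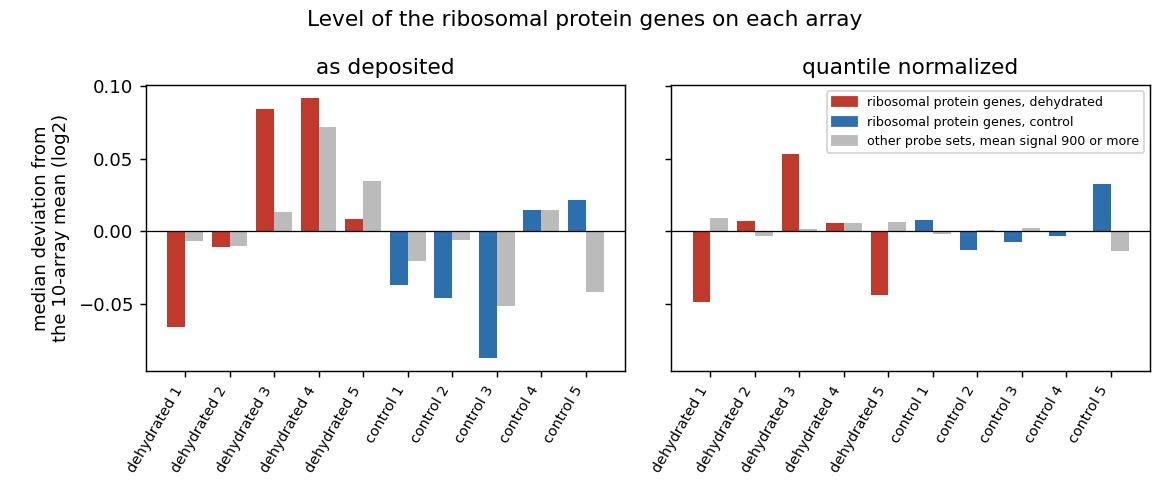
Median log2 deviation of the 39 ribosomal protein genes from their 10-array means on each array, as deposited (left panel) and quantile normalized (right panel), with dehydrated pools in red and control pools in blue. Grey bars give the same median for the 664 other probe sets with a mean signal of 900 or more. As deposited, dehydrated replicates 3 and 4 stand at 0.084 and 0.092 and control replicate 3 at -0.087.

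The bright end of the arrays as a whole leaned the same way as the members. The 99th percentile of the signals was 1560 ± 39.7 on dehydrated arrays and 1516 ± 26.6 on control arrays (SD, n = 5 each, exact two-sided permutation p = 0.0476, smallest possible p 0.0079). The same permutation test gave p = 0.389 for the median signal and 0.0794 for the summed signal. It gave 0.516 for the 3′ to 5′ beta-actin ratio and 0.786 for the 5S ribosomal RNA control. These p-values were not adjusted for their number, and the test of the 99th percentile was not planned. Of the 664 other probe sets with a mean signal of 900 or more, 460 differences (69.3%) were positive, with a median of 0.041 as deposited and 0.0083 after quantile normalization. For the members the corresponding values were 28 of 39 (71.8%), 0.042 and -0.0058. The part of the scaling in the members' differences was not tested beyond these values.

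Within the family the lean lay in the brighter probe sets. The 20 members with a mean signal of 2000 or more had 18 positive differences and a median of 0.092, and the 147 other probe sets that bright had 83.7% positive and a median of 0.069. After quantile normalization those medians were 0.0056 and -0.00082. The 19 members under 2000, the dim Rpl39 among them, had 10 positive differences and a median of 0.0047 as deposited. The 517 other probe sets from 900 to 2000 had 65.2% positive and a median of 0.035. After quantile normalization the 19 members had 6 positive differences and a median of -0.021. The 517 others then had 55.1% positive and a median of 0.0096. All 39 members were within 0.3 on the log2 scale, as were 97.7% of the 664 other bright probe sets, 12 of which passed the threshold.

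**Figure D4:**
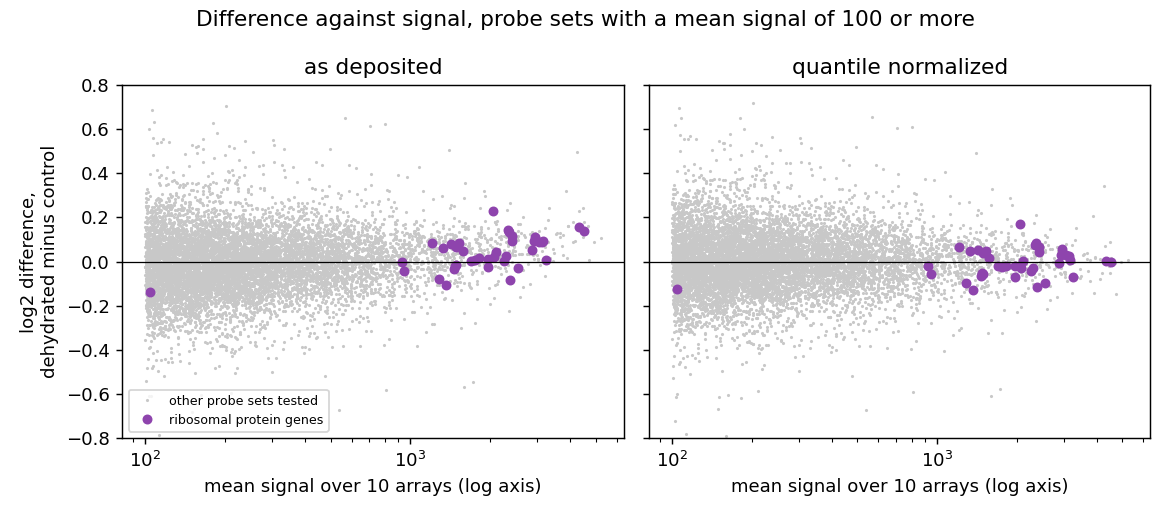
Log2 difference, dehydrated minus control, against the mean signal over 10 arrays on a log axis, for tested probe sets with a mean signal of 100 or more, as deposited (left panel) and quantile normalized (right panel). Purple points are the ribosomal protein genes and grey points the other probe sets; the vertical axis stops at 0.8 in either direction. Above a signal of 2000 both kinds of points lean above 0 as deposited, with medians of 0.092 and 0.069, and centre near 0 after quantile normalization.

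Members grouped by the pyrimidine run at their annotated start had overlapping differences. The 13 tested members with a run of 10 or more bases, such as Rps23, Rpl23 and Rpl37a above, had a median of 0.042 and a range from -0.041 to 0.14. The 8 with a run of 6 to 9, such as Rps28, Rps3a and Rplp0, had a median of 0.070 and a range from -0.083 to 0.23. The 14 with a shorter counted run, such as Rpl7a and Rpl24, had a median of 0.020 and a range from -0.14 to 0.13. Runs were counted only from 10 bases before the start on. Some of these 14, such as Rpl7a, Rps3 and Rpsa, carry a longer run that begins further upstream. The 3 groups therefore do not separate members with and without a run. After quantile normalization the 3 medians were -0.0021, 0.046 and -0.025. No test was made between the 3 groups.

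The genes that serve the ribosome in other roles were read in the same fit, where 12.7% of all probe sets had an unadjusted p under 0.05. Of 32 translation initiation factors tested, none passed the threshold, 3 had an unadjusted p under 0.05, and the median difference was 0.0036. Of these, the scaffold factor Eif4g3 differed by -0.24 ± 0.074 (SE) (adjusted p 0.168, limma) and Eif3c, a subunit of the factor that binds the small subunit, by 0.19 ± 0.069 (SE) (adjusted p 0.262, limma). Of 15 elongation and termination factors, none passed and none had an unadjusted p under 0.05, with a median of 0.029. Of 17 other genes whose messenger RNAs are listed as bearing the oligopyrimidine tract, none passed, 2 had an unadjusted p under 0.05, and the median was 0.026. The small subunit scaffold Rack1 was among them, at 0.098 ± 0.05 (SE) (adjusted p 0.427, limma). Of 10 genes for nascent chain handling and ribosome quality control none passed, and the median was -0.0012.

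Of 38 genes of ribosome biogenesis and ribosomal RNA transcription, none passed the threshold, 4 had an unadjusted p under 0.05, and the median difference was 0.036. Riok1, a kinase of small subunit maturation, had signals of 130.9, 152.5, 166.6, 152.4 and 178.1 in the dehydrated pools, against 120.3, 118.4, 125.4, 121 and 118.7 in the control pools. All 5 dehydrated values were above the controls, as in 1.94% of all probe sets tested. The log2 difference was 0.35 ± 0.087 (SE) (adjusted p 0.0808, limma). Riok1 passed the threshold with array weights (adjusted p 0.0415), where 201 probe sets passed, and without dehydrated replicate 1 (adjusted p 0.0447). With other single arrays left out the limma adjusted p of Riok1 reached 0.201, and in other settings 0.133. Fbl, which methylates ribosomal RNA, had signals of 210, 264.9, 276.6, 239.2 and 231.5 in the dehydrated pools, against 325.2, 299.4, 281.4, 298.5 and 281.5 in the control pools. All 5 dehydrated values were below the controls, where 3.36% of all probe sets tested showed no overlap in either direction. The log2 difference was -0.28 ± 0.08 (SE) (adjusted p 0.135, limma). Myc, a transcription factor that drives ribosome production, had dim signals of 37.7, 25.3, 35.8, 34.7 and 29.1 in the dehydrated pools, against 30.3, 17.7, 21.8, 15.8 and 19.8 in the control pools. Its groups overlapped, and it differed by 0.56 ± 0.18 (SE) (adjusted p 0.196, limma). Gnl3, a nucleolar GTP-binding protein, differed by 0.22 ± 0.075 (SE) (adjusted p 0.241, limma). Of the 38 genes, 24 had positive differences, and so had 3 of these 4 and 48.8% of all probe sets tested.

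Of 28 genes of the mTORC1 and S6 kinase pathway, none passed the threshold, 5 had an unadjusted p under 0.05, and the median was -0.036. Eif4ebp1 and Eif4ebp2 encode proteins that hold back the cap-binding initiation factor until mTORC1 phosphorylates them. Eif4ebp1 had signals of 85.7, 87.2, 81.7, 85.2 and 67.9 in the dehydrated pools, against 61.1, 66.2, 52.5, 57 and 55.2 in the control pools. Eif4ebp2 had signals of 236.2, 252.5, 199, 202.2 and 238.3 in the dehydrated pools, against 261, 296.1, 305, 277.4 and 316.7 in the control pools. The groups did not overlap in either gene, where 3.36% of all probe sets tested showed no overlap. The signs were opposite, with log2 differences of 0.46 ± 0.11 (SE) for Eif4ebp1 (adjusted p 0.065, limma) and -0.37 ± 0.083 (SE) for Eif4ebp2 (adjusted p 0.0565, limma). Both passed the threshold with array weights, where 201 probe sets passed, at an adjusted p of 0.0462 for Eif4ebp1 and 0.0362 for Eif4ebp2. Eif4ebp1 also passed without dehydrated replicate 5 (adjusted p 0.0462), and Eif4ebp2 with the stricter filter (0.0477) and without dehydrated replicate 2 (0.0397). With other single arrays left out the limma adjusted p reached 0.151 for Eif4ebp1 and 0.155 for Eif4ebp2. In other settings it reached 0.110 for Eif4ebp1 and 0.152 for Eif4ebp2.

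Of 73 mitochondrial ribosomal protein genes, which encode the separate ribosome of mitochondria, 1 passed the threshold, 9 had an unadjusted p under 0.05 (12.7% of all probe sets did), and the median was 0.026. That gene, Mrps26, had signals of 738.1, 627, 666.9, 696.2 and 637.5 in the dehydrated pools, against 498, 432.8, 457.1, 518.1 and 580.1 in the control pools. All dehydrated values were above all control values, as in 1.94% of all probe sets tested. Mrps26 was higher in the dehydrated pools by 0.44 ± 0.077 (SE) on the log2 scale (adjusted p 0.0135, limma), and the adjusted p was 0.0503 without dehydrated replicate 4 and 0.089 without the variance trend. For the cytosolic family no member reached that size of difference.

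Markers of the tissue and of its cell types were read beside the family, where 48.8% of all probe sets tested had a positive difference. Vasopressin (Avp), oxytocin (Oxt), Crh, Trh and the hypothalamic transcription factor Sim1 were all tested, with summed signals of the paraventricular list of 9006 to 12139 in the dehydrated pools and 7482 to 9970 in the control pools. Avp had a log2 difference of 0.50 ± 0.11 (SE) (adjusted p 0.0504, limma), with overlapping groups. After quantile normalization that of Avp was 0.34 (adjusted p 0.129, limma). Oxt differed by 0.24 as deposited and by 0.088 after quantile normalization. Of 9 oligodendrocyte markers, none had a positive difference, 7 had an unadjusted p under 0.05 (background 12.7%), and Ermn was lower past the threshold, at -0.63 ± 0.12 (SE) (adjusted p 0.0255, limma). The median of the 9 was -0.28, and their summed signal was 7132 to 7448 in the dehydrated pools and 7643 to 9267 in the control pools. Of 8 astrocyte markers none passed as deposited and 3 had an unadjusted p under 0.05, with sums of 13522 to 15107 in the dehydrated pools and 13620 to 15240 in the control pools. Of the 8 astrocyte markers 3 were positive, with a median of -0.058. The astrocyte filament gene Gfap differed by -0.38 ± 0.086 (SE) (adjusted p 0.0553, limma), and by -0.40 after quantile normalization, where it passed (adjusted p 0.04). The other astrocyte markers with an unadjusted p under 0.05 had opposite signs, Aqp4 at -0.16 and Aldoc at 0.13. Of the 2 red blood cell markers, Hbb was lower past the threshold, at -0.67 ± 0.13 (SE) (adjusted p 0.0305, limma). Of 5 microglial markers 0 differences were positive, with a median of -0.18, and of 8 endothelial markers 6 were positive, with a median of 0.15, none past the threshold. Of 6 neuronal markers 2 were positive, with a median of -0.058, and of 3 ependymal and choroid plexus markers 1 was positive, with a median of -0.19, also none past the threshold. No marker tested was at 0 on any array. The part of the cell type makeup in the members' values was not tested. In RNA from whole nuclei, fewer cells of a type and less RNA per cell cannot be told apart.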

How the data were processed

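RNA pools of the paraventricular nucleus were read on 10 arrays, 5 per group. The values are probe set intensity values (signals) on a linear scale, deposited by the authors, who used GCOS 1.2 according to the submitters' processing notes. How the software summarised probes and corrected background is not given in the sources used here. Each array had been scaled to a common trimmed mean. All columns were matched to samples through the labels, which describe the pools as prepared from separate groups of animals.

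The table held 31042 probe sets beside 57 controls. Gene symbols came from the platform annotation, updated through Entrez identifiers. Signals were used as log2(signal + 3.72), so that changes of dim probe sets come out too small, and the 18629 probe sets with a mean signal at or above the 40th percentile were tested. Groups were compared with the two-sided test of limma 3.58.1 (lmFit, then eBayes with a variance trend) under R 4.3.3. P-values were adjusted by Benjamini-Hochberg over all probe sets tested, at a threshold of 0.05. Confidence intervals (95%) and standard errors come from this fit, which was also tested on simulated data. There a log2 change of 0.4 was called in 31.8% of 337 probe sets and one of 0.8 in 83.3% of 342. These probe sets were drawn from all those tested, not from the members, and changes under 0.4 were not simulated. Single values per array were compared by exact permutation over all 252 assignments. The number of arrays limits the precision.

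The genes named were the 8 tested members with the most positive and the 8 with the most negative differences, members whose groups did not overlap, the 5 brightest and 5 dimmest members, those not tested, Rplp0, Rpsa and Rps6, the paralogs, and up to 4 genes of each further list by smallest p. Rpl27a and the remaining members at the ends of a range were named after their values were seen. The members and the gene lists were chosen with earlier results of these data known. Alternatives were quantile normalization, median centring, other pseudocounts and filters, other variance models, array weights, single arrays left out and other probe sets per gene. RefSeq promoter sequences came from a table on build GRCr8.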

Additional observations from a re-analysis of the deposited data

Results flagged for a closer look

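Single pools far from the rest of their group were looked for in 50 groups of 5 values, and 5 were found, where chance gives about 1 in 20. Rpl35a was 2091.8 in dehydrated replicate 1, against 2568.7 to 2697.7 in the other dehydrated pools. Rpl39 was 57.6 in dehydrated replicate 4, against 105.2 to 120.2 in the other dehydrated pools. Rpl21 was 1198.6 in control replicate 3, against 1323.9 to 1355.2 in the other control pools. Rpl7a was 2057.9 in that same control pool, against 2284.5 to 2312.1 in the others. The 3′ to 5′ log2 ratio of the Gapdh control probe sets was 1.05 in control replicate 5, against 1.42 to 1.54 in the other control pools.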

How the results depend on the processing

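The count of ribosomal protein genes past the threshold was 0 in every alternative run, and no named member passed in any of its 399 recomputed values. The count of all probe sets past the threshold was 108, and it was 64 with no filter, 45 without the variance trend, 201 with array weights and 46 to 148 with single arrays left out. Positive members numbered 28, against 18 after quantile normalization, 29 after median centring and 22 to 33 with single arrays left out. Members whose groups did not overlap numbered 1, against 0 after quantile normalization and 1 to 2 with single arrays left out. The median difference of 0.042 ran from 0.026 to 0.064 with single arrays left out and was -0.0058 after quantile normalization. Of the 19 named members tested, 12 kept their sign in every alternative run. Outside the single arrays left out, the sign turned for Rpl26 (-0.068) and Rps23 (-0.0021) after quantile normalization and for Rpl34 (0.0067) with array weights. It also turned for Rpsa (0.034) when only probe sets without a mark for shared probes in their name were used. With single arrays left out, the differences ran from -0.078 to 0.013 for Rpl14, from -0.028 to 0.058 for Rpl26, from -0.051 to 0.015 for Rpl34, from -0.067 to 0.035 for Rpl35a, from -0.22 to 0.041 for Rpl39 and from -0.061 to 0.012 for Rpsa. With the mean over its probe sets Rpl14 was -0.54. The cause of these changes was not tested. The probe sets with several symbols, and leaving out control replicate 5 and dehydrated replicate 2 together, were chosen after seeing the data. No paired analysis was possible because the replicate numbers were given in accession order and pair nothing across the groups.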
